A study of Rattus norvegicus with 6 samples.

Results

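The Ikaros zinc finger family comprises 5 genes, Ikzf1 to Ikzf5, and all 5 were found by symbol among the 17771 genes of the count table. Each of them also passed the filter on low counts that left 14213 genes for testing. The libraries are bulk RNA sequencing of corneas from Wistar rats into which a cornea of Sprague-Dawley (SD) rats had been transplanted. Each recipient was injected intraperitoneally every day with saline (control, 3 libraries) or with resveratrol, a plant polyphenol (3 libraries), and the corneas are from day 7 after surgery. All groups carried a graft, an ungrafted cornea was not analysed here, and the labels give no age, sex or dose and do not say which part of the cornea was taken. The study concerns rejection of the graft, and its design sets resveratrol against saline. The genes are named by symbol, but the family itself was chosen by measured values, the high level of Ikzf2 and its small difference between the groups in these libraries. Its levels and its differences between groups are therefore given as a description, and no p-value of a member is used.

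Ikaros proteins are transcription factors with 2 clusters of zinc fingers. The cluster near the amino terminus binds DNA and the one at the carboxy terminus joins family members into dimers. Ikzf1 encodes Ikaros and Ikzf3 Aiolos, regulators of lymphocyte development, Ikzf2 encodes Helios and Ikzf4 Eos, both known from regulatory T cells, and Ikzf5 encodes Pegasus, the most divergent member, which is expressed in many tissues. In lymphocytes these proteins recruit the NuRD chromatin remodelling complex and other corepressors to their targets. Ikaros and Aiolos are also known as the proteins that the ubiquitin ligase receptor cereblon marks for destruction in human cells in the presence of thalidomide analogs.

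Total counts per library were 35068936 to 37460756, so depth was similar throughout, and the error bars below are SDs over 3 libraries. Nothing in the labels ties the libraries to separate animals, so spreads and p-values measure only the variation between these samples, which may be technical. Replicate 1 of each group has a description ending in Sep and the other 4 libraries in Oct, a suffix the labels leave unexplained. Krt12, the keratin of corneal epithelium, at 34169 ± 1076 CPM in control corneas against 35071 ± 2934 CPM with resveratrol, and Kera, the keratan sulfate proteoglycan of corneal stroma, at 214 ± 60.3 and 187 ± 60.7 CPM, were abundant, as the cornea label has it. CPM are read counts per library size, scaled with TMM factors (trimmed mean of M-values). By edgeR's quasi-likelihood test 0 of the 14213 genes reached an adjusted p under 0.05, 2782 had an unadjusted p under 0.05, and DESeq2 called 1007 of 14666. Without control 3 edgeR called 21 genes.

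The members differed widely in level, and the start regions of the genes differed as well. RefSeq promoter windows were given for 3 of the 5 members, and they are shown because Ikzf2 and Ikzf5, the abundant members, and Ikzf1, a scarce member, can be compared in them. Each window runs from 250 bases before to 50 bases after the annotated start in the rat assembly GRCr8, is read 5′ to 3′ on the strand of the gene, and has its CpG dinucleotides in capitals. The windows are Ikzf2 at chr9:78640310-78640609 on the minus strand, Ikzf5 at chr1:195618964-195619263 on the minus strand and Ikzf1 at chr14:90468446-90468745 on the plus strand. The submitters' processing notes name another build, mRatBN7.2, so these positions serve for the sequences alone.
Ikzf2: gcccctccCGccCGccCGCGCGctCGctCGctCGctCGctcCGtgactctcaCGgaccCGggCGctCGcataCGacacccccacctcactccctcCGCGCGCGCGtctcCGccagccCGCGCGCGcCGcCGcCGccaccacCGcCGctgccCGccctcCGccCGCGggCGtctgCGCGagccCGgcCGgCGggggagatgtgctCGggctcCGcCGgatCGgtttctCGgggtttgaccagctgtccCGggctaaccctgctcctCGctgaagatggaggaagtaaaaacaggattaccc
Ikzf5: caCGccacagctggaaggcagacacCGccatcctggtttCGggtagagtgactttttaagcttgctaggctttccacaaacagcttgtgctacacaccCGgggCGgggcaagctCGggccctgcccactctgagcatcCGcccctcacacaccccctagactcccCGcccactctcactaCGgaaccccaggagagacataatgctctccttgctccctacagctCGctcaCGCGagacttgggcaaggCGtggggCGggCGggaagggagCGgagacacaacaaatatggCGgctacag
Ikzf1: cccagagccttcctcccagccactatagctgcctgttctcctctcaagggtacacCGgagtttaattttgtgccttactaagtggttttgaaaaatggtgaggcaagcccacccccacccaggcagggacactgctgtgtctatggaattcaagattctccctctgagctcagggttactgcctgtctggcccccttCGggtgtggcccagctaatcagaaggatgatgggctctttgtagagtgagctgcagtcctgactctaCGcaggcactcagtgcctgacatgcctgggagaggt

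The Ikzf2 window held 47 CpG dinucleotides and was 74.3% G or C, and 1.26% of the 33469 windows of this length in the table held as many or more. The Ikzf5 window held 17 CpG (61.3% G or C), a count reached by 29.0% of windows. The Ikzf1 window held 3 CpG (54.7% G or C), against a median of 7 over all windows, and 77.7% of windows held as many or more. The order of CpG number in the windows was thus the order of level of these 3 genes, which is a description of 3 points. The core motif bound by Ikaros proteins, GGGAA, was searched on both strands and occurred at 1 place in the Ikzf5 window and at 0 in the windows of Ikzf1 and Ikzf2, while 62.3% of all windows held it. The longer form TGGGAA, which contains it, was in 0 of the 3 windows and in 25.7% of all.

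Ikzf2 was the dominant member in every library. Its level was 15.5, 13.7 and 16.1 FPKM (fragments per kilobase of transcript, scaled to library depth) in control 1, 2 and 3 and 14.7, 16.6 and 16.5 FPKM in resveratrol 1, 2 and 3, which gave it 67.8% to 73.3% of the summed FPKM of the family. Ikzf5 came next at 4.86 to 5.99 FPKM and 21.7% to 27.7% of the sum. The ratio of Ikzf2 to Ikzf5 within a library was 2.45 to 3.38, so these neighbours in the order did not overlap. Ikzf1 lay at 0.361 to 0.876 FPKM, and its range stayed below that of Ikzf5, with a ratio of Ikzf5 to Ikzf1 of 5.92 to 16.0. Ikzf4 was at 0.243 to 0.394 FPKM and Ikzf3 at 0.222 to 0.451 FPKM.

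**Figure D1:**
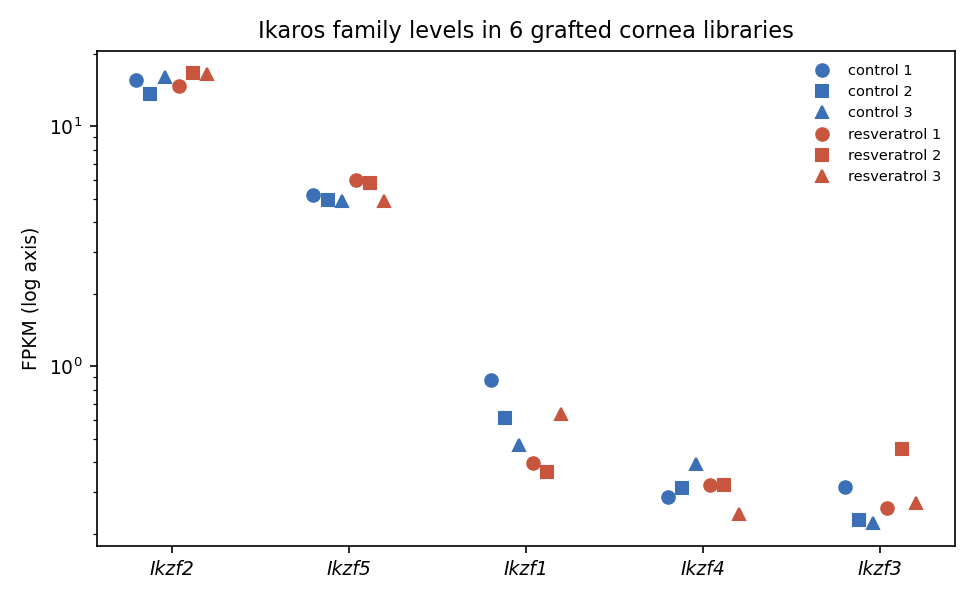
FPKM of each Ikaros family gene (log axis) in the 6 libraries, blue for control and red for resveratrol, with symbols for replicates 1 to 3. Ikzf2 at 13.7 to 16.6 and Ikzf5 at 4.86 to 5.99 FPKM stand above the other members, whose ranges overlap one another.

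The 3 scarce members could not all be ordered. Ikzf1 was above Ikzf4 in 6 of 6 libraries but the ranges overlapped, Ikzf1 was above Ikzf3 in 5 of 6, and Ikzf4 was above Ikzf3 in 3 of 6. In raw counts Ikzf3, with 98 to 196, exceeded Ikzf4, with 55 to 90, whereas per length they were alike. The lengths that the deposited FPKM imply, from counts, FPKM and the library totals, were 11.8 kb for Ikzf3, 10.6 kb for Ikzf2, 7.198 kb for Ikzf1, 6.10 kb for Ikzf4 and 4.47 kb for Ikzf5. FPKM compares genes only as well as these lengths describe the transcripts present in cornea, which was not tested. RefSeq also lists Ikzf5l1, a gene of similar name that was not analysed here, and the sources used here do not give how reads matching both were counted, so the level of Ikzf5 is uncertain to that extent.

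Against all 17771 listed genes, mean FPKM put Ikzf2 above 77.3%, Ikzf5 above 57.0%, Ikzf1 above 30.3%, Ikzf4 above 26.4% and Ikzf3 above 25.9% of them. Against 15 other transcription factors of blood cell development, 1 had a higher mean FPKM than Ikzf2, namely Tcf3 (E2A, expressed in most tissues) at 18.8 FPKM, named after its value was seen. Ets1, a factor of lymphocytes and endothelium, followed Ikzf2 at 13.0 FPKM, and Bcl11b, a T cell factor also found in skin epithelium, was at 7.34 FPKM. Ikzf1, Ikzf3 and Ikzf4 were each below 12 of the 15. The summed FPKM of the family was 22.2, 19.8 and 22.0 in control 1, 2 and 3 and 21.6, 23.6 and 22.5 in resveratrol 1, 2 and 3, and these ranges overlapped.

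Between resveratrol and control, the groups overlapped in CPM for all 5 members. Of the 5, 0 had groups without overlap, against 26.5% of all genes tested; 0 passed the adjusted threshold of edgeR, as for 0% of all genes; 0 had an unadjusted p under 0.05, against 19.6% (7.84% higher and 11.7% lower); and 0 were called by DESeq2, against 6.87%. Since the family was chosen with this comparison in view, nothing is read from these counts. The fitted difference was below 0 for 2 of the 5, Ikzf1 and Ikzf4, as for 51.2% of all genes, and above 0 for Ikzf2, Ikzf3 and Ikzf5. Fold changes are edgeR's fitted log2 values, resveratrol minus control, with a moderated standard error from limma.

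Ikzf2, the gene of Helios, was at 166, 146 and 171 CPM in control 1, 2 and 3 against 158, 175 and 170 CPM in resveratrol 1, 2 and 3. Control 2 was the lowest library and resveratrol 2 the highest, and the other 4 lay between them with the groups mixed. The means were 161 ± 13.3 and 168 ± 8.32 CPM, closer than either SD (log2 fold change 0.060 ± 0.085), and without control 2 the difference was -0.0061. Over all 6 libraries the coefficient of variation of Ikzf2 was 6.44%. The median was 9.35% for the 500 tested genes nearest to it in mean CPM, and 25.6% of them varied less. Since the family was chosen for the small difference of Ikzf2 in these libraries, nothing is read from this rank. At 5359 to 6504 counts per library its counting error was small.

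Ikzf5, the gene of Pegasus, was at 23.4, 22.1 and 21.9 CPM in control against 27.3, 25.6 and 21.2 CPM with resveratrol. The controls lay within a narrow range, resveratrol 1 and 2 lay above it and resveratrol 3 below it. The means were 22.5 ± 0.795 and 24.7 ± 3.15 CPM (0.14 ± 0.12), and without resveratrol 3 the fold change was 0.25 and without resveratrol 1 it was 0.068. Its coefficient of variation over the 6 libraries, 10.1%, was near the median of 10.96% for the 500 genes of nearest mean CPM.

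Ikzf1, the gene of Ikaros, had 221, 162 and 127 counts in control 1, 2 and 3 and 106, 96 and 168 counts in resveratrol 1, 2 and 3. In CPM these were 6.35, 4.41 and 3.405 against 2.89, 2.58 and 4.42. Control 1 was the highest library, while control 3 lay below resveratrol 3, so the groups overlapped. The means were 4.72 ± 1.499 and 3.299 ± 0.987 CPM, and the fold change, -0.52 ± 0.30, was the farthest from 0 in the family. It was -0.24 without control 1, -0.78 without resveratrol 3 and, over only the Oct libraries, -0.16; in the single pair of Sep libraries the log2 ratio of CPM was -1.13. The exact 95% Poisson intervals of the counts, which cover counting error only, were 193 to 252 for control 1 and 77.8 to 117 for resveratrol 2, so the spread over libraries was larger than counting error. Ikzf1 varied more (34.3%) than 75.6% of the genes of nearest mean CPM.

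Ikzf3, the gene of Aiolos, was at 3.74, 2.72 and 2.63 CPM in control against 3.09, 5.26 and 3.08 CPM with resveratrol. Resveratrol 2 stood alone at 196 counts (Poisson interval 169.5 to 225), and the other 5 libraries held 98 to 130 counts with the groups mixed. The fold change was 0.33 ± 0.27 with all libraries and 0.028 without resveratrol 2, so its size rested on that library. Within the Oct libraries it was 0.64, and in the Sep pair the log2 ratio of CPM was -0.28.

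Ikzf4, the gene of Eos, was the member with the fewest counts, 61, 70 and 90 in control and 73, 72 and 55 in resveratrol. Control 3 was the highest and resveratrol 3 the lowest library, and the Poisson intervals of these, 72.4 to 111 and 41.4 to 71.6, lay just apart, while those of the other 4 libraries overlapped both. The means were 2.02 ± 0.345 and 1.79 ± 0.299 CPM (-0.18 ± 0.24). The fold change was -0.029 without control 3, -0.0365 without resveratrol 3, -0.26 without control 1 and -0.35 in the Oct libraries alone. Ikzf4 varied by 16.5% over the libraries, and 11.8% of the genes of nearest mean CPM varied less.

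**Figure D2:**
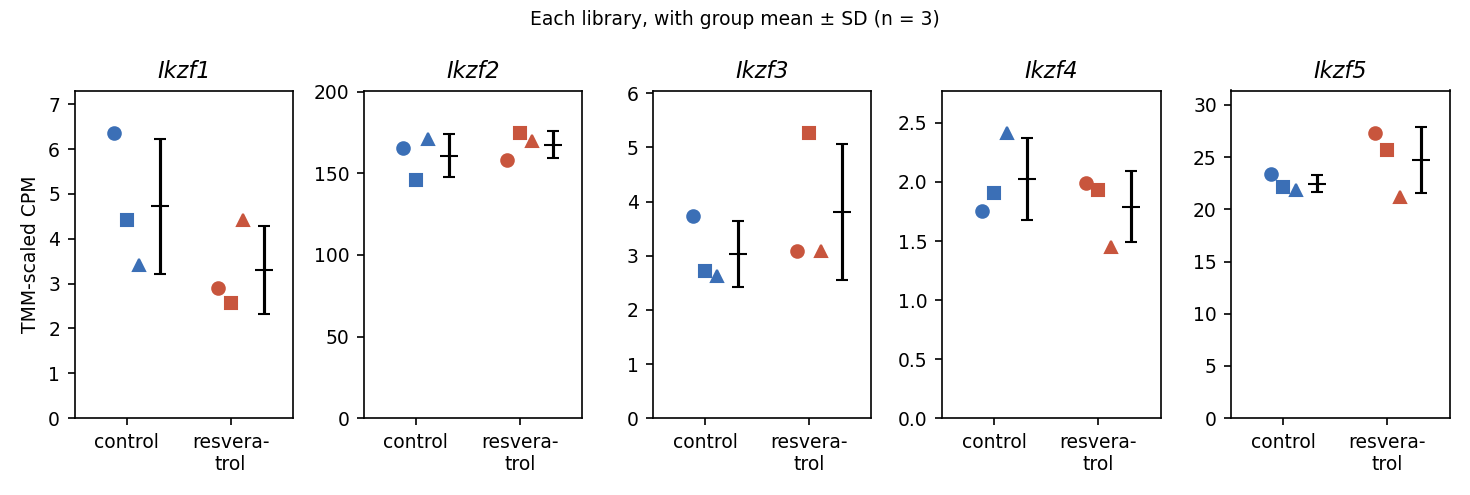
TMM-scaled CPM of each member (each panel with its own axis from 0) in control (blue) and resveratrol (red) libraries, with symbols for replicates 1 to 3 and the group mean ± SD (n = 3) in black. The groups overlap in every panel, and single libraries stand apart for Ikzf1 (control 1 at 6.35) and Ikzf3 (resveratrol 2 at 5.26).

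Leukocyte markers had lower means with resveratrol over the same libraries, and in bulk tissue fewer cells of a type and less RNA per cell cannot be told apart. All 10 pan-leukocyte markers had lower means (median log2 fold change -0.90, against -0.0080 over all genes tested), 9 of 10 at an unadjusted p under 0.05, against 11.7% of all genes in this direction. In the Oct libraries alone the median was -0.48. Their summed level was 208 to 350 CPM in control and 131 to 211 CPM in resveratrol. Ptprc, the leukocyte phosphatase CD45, was at 24.5, 22.7 and 14.3 CPM in control 1, 2 and 3, against 8.96, 10.2 and 14.8 CPM in resveratrol 1, 2 and 3 (-0.85 ± 0.26; edgeR adjusted p = 0.160, DESeq2 adjusted p = 0.0318). As for Ikzf1, control 1 was the highest and control 3 lay below resveratrol 3. The part of these cells in the differences of Ikzf1 was not tested.

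Per count of Ptprc, Ikzf1 gave 0.260, 0.194 and 0.238 counts in control and 0.323, 0.253 and 0.298 counts in resveratrol, so the means of this ratio were ordered the other way from the CPM and the groups again overlapped. Ikzf3 gave 0.153, 0.1198 and 0.184 per count of Ptprc in control and 0.345, 0.516 and 0.208 in resveratrol, without overlap. Such a ratio was higher in resveratrol without overlap for 36.3% of all genes tested, since Ptprc itself was lower.

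The lymphocyte markers that accompany Ikaros and Aiolos elsewhere were scarce in these corneas. Means of T cell markers were lower with resveratrol in 10 of 10 tested (median -1.12), as for 51.2% of all genes, and 6 of 10 were lower at an unadjusted p under 0.05, against 11.7%. Their summed level was 34.4 to 68.6 CPM in control and 19.0 to 31.6 CPM in resveratrol, of which Cd4, a coreceptor that rat macrophages carry as well, gave 20.9 to 41.0 and 13.1 to 20.1 CPM. Cd3e, part of the T cell receptor, had 95, 44 and 30 counts in control and 8, 13 and 26 counts in resveratrol. Ikzf3 had 98 to 196 counts in the same libraries, and 113 in the lowest T cell library, resveratrol 1. Raw counts grow with transcript length, so they do not rank these genes. Mean FPKM over the 6 libraries was 0.290 for Ikzf3 and 0.778 for Cd3e. Their FPKM ranges, 0.222 to 0.451 and 0.168 to 2.12, overlapped. B and plasma cell markers summed to 3.27 to 7.07 CPM in control and 1.69 to 2.66 CPM in resveratrol. Of the 10 listed, 9 were in the table and 4 passed the filter. Natural killer markers summed to 1.85 to 5.95 and 0.683 to 2.87 CPM, with 2 of 8 tested.

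Regulatory T cell markers were scarce beside Ikzf2. Foxp3, their defining factor, had 29, 41 and 28 counts in control and 7, 11 and 14 counts in resveratrol (-1.65 ± 0.37; edgeR adjusted p = 0.125, DESeq2 adjusted p = 0.0352), without overlap. Ikzf2 had 131 to 228 raw counts for each count of Foxp3 in control and 461 to 829 in resveratrol, where Foxp3 itself was lower. The share of all genes with such a rise against Foxp3 was not computed, so nothing is read from it. Raw counts grow with transcript length, and mean FPKM over the 6 libraries was 15.5 for Ikzf2 and 0.141 for Foxp3. Of the 6 tested markers of this list 5 had lower means (median -1.14) and Tnfrsf18, the costimulatory receptor GITR, a higher one (0.96 ± 0.28; edgeR adjusted p = 0.160, DESeq2 adjusted p = 0.0289). The list summed to 26.9 to 41.4 CPM in control and 23.1 to 26.9 CPM in resveratrol. Most of this came from Lrrc32, at 20.0 to 31.4 CPM in control and 13.2 to 18.0 CPM in resveratrol. Its fold change was -0.64 ± 0.19 (edgeR adjusted p = 0.161, DESeq2 adjusted p = 0.0483). The sum thus says little of Foxp3. Ctla4, Tigit and Gpr83 were at 0 in at least 1 library. Bulk counts do not show which cells held the Ikzf2 transcripts.

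Macrophage markers had lower means in 11 of 13 (median -0.75), with Cd68, a lysosomal protein of macrophages, at 57.4 ± 8.60 and 31.1 ± 7.00 CPM. The 2 most abundant overlapped between the groups, Lyz2 at 284 ± 191 and 163 ± 69.4 CPM and Cd14 at 81.4 ± 4.28 and 68.5 ± 13.8 CPM. The 2 with higher means were Mrc1 (0.11 ± 0.21) and Cd163 (0.11 ± 0.24). The list summed to 557 to 1041 CPM in control and 407 to 611 CPM in resveratrol. All 9 tested dendritic cell markers had lower means (median -1.26), with a sum of 37.7 to 62.9 and 23.0 to 26.4 CPM. Markers of corneal epithelium were nearly level, 8 of 10 with higher means (median 0.060), and summed to 91963 to 103256 CPM in control and 92073 to 108335 CPM in resveratrol. Schwann cell markers had a median of 0.030 over 7 genes and corneal endothelial markers -0.15 over 6. Keratocyte markers had lower means in 8 of 8 tested (-0.24) and blood vessel markers in 8 of 8 (-0.72). The keratocyte median was -0.12 without resveratrol 3 and -0.39 without resveratrol 2, and the vessel median was -0.40 without control 1. Platelet and megakaryocyte markers, listed because inherited changes of IKZF5 lower platelet number, had lower means in 3 of 3 tested (median -0.81), with Itga2b, the platelet integrin, at 13 to 43 counts.

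**Figure D3:**
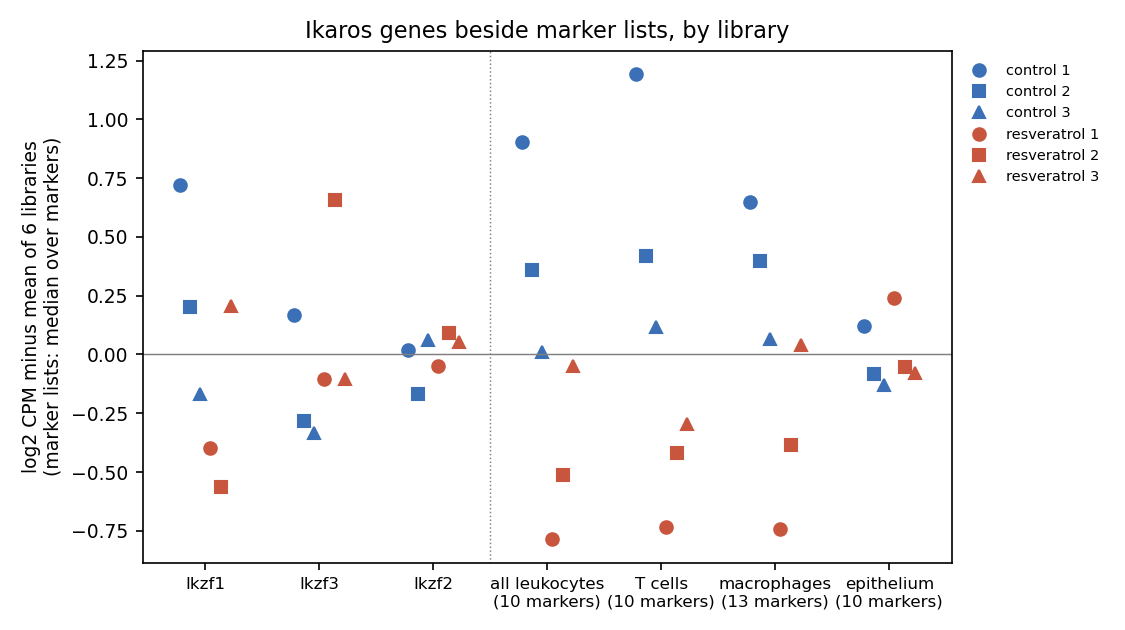
Log2 CPM of Ikzf1, Ikzf3 and Ikzf2 in each library minus the gene's mean over the 6 libraries, beside the median of the same quantity over 4 marker lists (blue control, red resveratrol, symbols for replicates). The leukocyte, T cell and macrophage lists and Ikzf1 are highest in control 1 (0.72 for Ikzf1, 0.90 for leukocytes), whereas Ikzf2 stays within -0.17 to 0.091.

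Genes of the complexes that Ikaros proteins recruit were abundant and showed small differences. Of the 13 NuRD genes, 0 passed the adjusted threshold in edgeR, against 0% of all genes, or in DESeq2, against 6.87%. Means were higher for 8 and lower for 5, and the median log2 fold change was 0.0089. Chd4, the main remodelling ATPase, was at 248 ± 30.8 CPM in control against 245 ± 19.5 CPM with resveratrol, and the histone deacetylases Hdac1, at 189.5 ± 11.6 and 190.4 ± 8.61 CPM, and Hdac2, at 57.7 ± 2.58 and 58.5 ± 3.75 CPM, differed by less than either SD. The groups did not overlap for 2 lower and 2 higher of the 13, against 26.5% of all genes. At an unadjusted p under 0.05 edgeR gave 2 of the 13, against 19.6% of all genes, and nothing is read from these shares. The 2 were the alternative ATPase Chd3 (-0.23 ± 0.067), lower, and the subunit Gatad2a (0.21 ± 0.071), higher. These were named after their values were seen. For the corepressors Sin3a, Sin3b, Ctbp1 and Ctbp2, 0 of 4 had an unadjusted p under 0.05, against 19.6% of all genes, a share that so short a list can hardly be set against (median 0.10), with Ctbp1, which binds short motifs in repressors, at 171 ± 1.19 and 181 ± 8.67 CPM and Sin3b, a scaffold for deacetylases, at 146 ± 13.0 and 135 ± 13.2 CPM.

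The ligase, kinase and phosphatase genes linked to Ikaros proteins had medians near 0, in lists as short. The link to cereblon is known from human cells with thalidomide analogs, and whether it holds in these rat corneas was not tested. Crbn, the cereblon gene, was at 16.8 ± 1.54 CPM in control against 15.3 ± 1.79 CPM with resveratrol (-0.13 ± 0.13). Ddb1, the adaptor that joins cereblon to the ligase, was at 409 ± 34.9 and 394 ± 37.2 CPM and Rbx1, its RING subunit, at 77.2 ± 2.65 and 78.5 ± 2.37 CPM, and 0 of the 5 ligase genes had an unadjusted p under 0.05, against 19.6% of all genes (median 0.023). Casein kinase 2 phosphorylates Ikaros and protein phosphatase 1 reverses it. Of their 6 subunit genes 0 had an unadjusted p under 0.05 in edgeR, against 19.6% of all genes (median 0.079). The groups did not overlap for 1 lower and 2 higher of the 6, against 26.5% of all genes. The phosphatase genes Ppp1ca and Ppp1cb were at 308 ± 2.53 and 293 ± 15.4 CPM and at 419 ± 54.8 and 408 ± 15.7 CPM.

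Genes known as regulated by Ikaros proteins in lymphocytes were in part barely detected. Of 15 listed, 12 were in the table and 7 were tested, 4 with lower and 3 with higher means (median -0.11). Of the 7, 0 passed the adjusted threshold in edgeR, as for 0% of all genes, and DESeq2 called 0, against 6.87%. The Notch pathway genes Notch3, a receptor, at 541 ± 35.1 and 502 ± 21.0 CPM (-0.11 ± 0.082), and Hes1, a repressor induced by Notch, at 92.6 ± 4.41 and 103 ± 6.42 CPM (0.15 ± 0.078), were the most abundant. The median was 0.12 without control 3, so its sign rested on that library. At an unadjusted p under 0.05 edgeR gave 2 of the 7, both lower, against 11.7% of all genes in this direction, named after their values were seen: Il7r, the interleukin 7 receptor of lymphocytes, at 3.79 ± 1.69 and 1.85 ± 0.621 CPM (-1.03 ± 0.38), and Irf4, a factor of activated lymphocytes, at 0.798 ± 0.157 and 0.304 ± 0.113 CPM (-1.38 ± 0.38). Dntt, the terminal transferase of developing lymphocytes, and Il2, the T cell growth factor, had 0 to 4 and 0 to 2 counts in a library.

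Among the other blood cell transcription factors, 14 of 15 were tested, 10 with lower and 4 with higher means (median -0.23). The median was -0.13 without control 1 and also -0.13 in the Oct libraries alone. In edgeR 0 passed the adjusted threshold, as for 0% of all genes. At an unadjusted p under 0.05, 6 were lower, against 11.7% of all genes, and 1 was higher, against 7.84%. DESeq2 called 2, both lower, against 4.64% of all genes in this direction. These were Runx3, a factor of cytotoxic T cells, with 283, 309 and 249 counts in control and 127, 107 and 147 counts in resveratrol (-1.18 ± 0.18; edgeR adjusted p = 0.1002, DESeq2 adjusted p = 1.1e-05), and Ebf1, a B cell factor also expressed in stromal cells, at 6.77 ± 2.18 and 3.399 ± 0.907 CPM (-0.99 ± 0.29; edgeR adjusted p = 0.158, DESeq2 adjusted p = 0.0352). The higher one was Bcl11b, at 42.5 ± 4.14 and 52.4 ± 1.85 CPM (0.30 ± 0.094; edgeR adjusted p = 0.161). The abundant factors Runx1, at 54.8 ± 7.14 and 71.7 ± 15.6 CPM, and Ets1, at 74.0 ± 13.3 and 68.2 ± 13.3 CPM, overlapped between the groups. Runx3, Ebf1 and Bcl11b were named after their values were seen, and whether their differences are unlike those of the Ikaros genes was not tested.

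**Figure D4:**
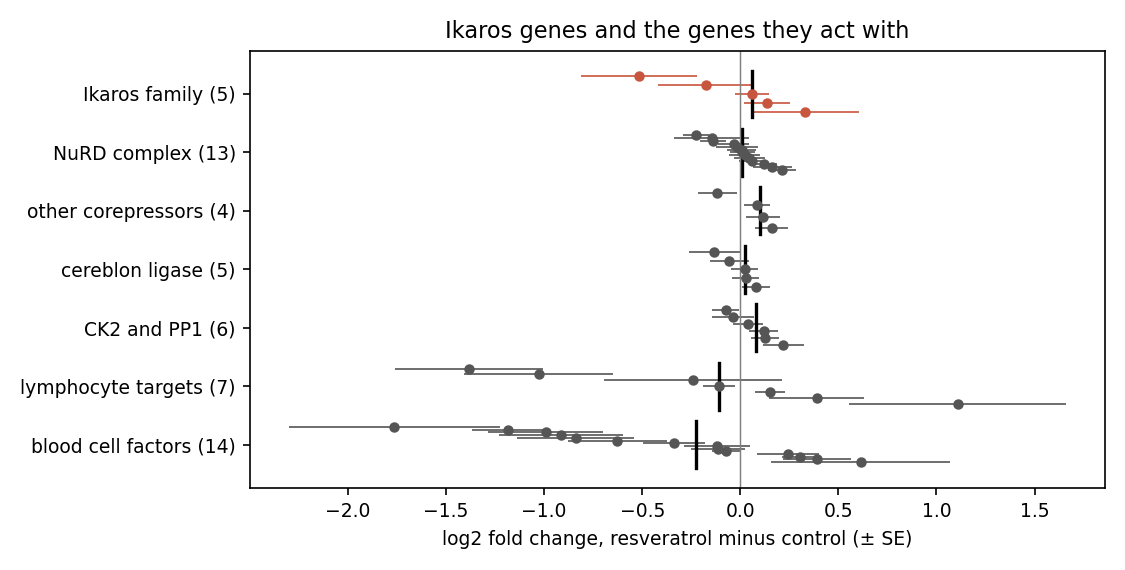
Fitted log2 fold change (resveratrol minus control) ± SE of each tested gene of the Ikaros family (red) and of 6 other gene lists (grey). The number of genes is in brackets and the list median is a black bar. The lists are complexes and enzymes linked to Ikaros proteins elsewhere, their lymphocyte targets and other blood cell factors. The link to the cereblon ligase is from human cells with thalidomide analogs. The NuRD, corepressor, ligase and kinase or phosphatase genes lie between -0.23 and 0.22, while the lymphocyte targets and blood cell factors spread from -1.76 to 1.11.

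The genes whose profile over the 6 libraries was most like each member were taken by the smallest root mean square difference of centred log2 CPM, among 12311 named genes with a mean of at least 1 CPM. For Ikzf1 these were Tspan7, Adora2a, Plcl2, Kcnab2 and Psmb9, at 0.13 to 0.15. Tspan7 was at 11.1, 8.27 and 7.24 CPM in control against 5.52, 5.58 and 7.43 CPM with resveratrol. Psmb9, an immunoproteasome subunit, was at 47.9, 26.4 and 25.7 against 19.3, 21.4 and 30.3 CPM. Both were highest in control 1, with control 3 below resveratrol 3, whereas for Adora2a control 3, at 1.34 CPM, lay above resveratrol 3, at 1.26 CPM. Likeness to a member follows here from how the genes were picked. For Ikzf3 they were Igfbp6, Gdpd3, Dusp14, Mkx and Taco1, at 0.091 to 0.13. Igfbp6, which binds insulin-like growth factor 2, was at 19.2 CPM in resveratrol 2 and 9.14 to 12.6 CPM in the other 5 libraries.

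For Ikzf2 the nearest were Cln6, Pitpna, Pbx3, Ldah and Mlst8, at 0.027 to 0.030, and Pitpna, a phosphatidylinositol transfer protein, had its lowest level, 154 CPM, in control 2 as Ikzf2 did. For Ikzf4 they were Tlr4, Marveld3, Ndufb8, Kbtbd3 and Man2b2 (0.055 to 0.075), with Tlr4, the endotoxin receptor, highest in control 3 at 34.0 CPM and lowest in resveratrol 3 at 22.6 CPM. For Ikzf5 they were Tbc1d30, Pnpla8, Pikfyve, Trim44 and Nipal2 (0.018 to 0.029). Pikfyve, a lipid kinase of endosomes, was at 33.0, 30.6 and 30.2 CPM in control against 37.7, 35.2 and 30.7 CPM with resveratrol. With 6 libraries many genes come close to any profile: 4102 of the candidates were nearer to Ikzf1, 3286 to Ikzf3, 2068 to Ikzf4, 1868 to Ikzf5 and 812 to Ikzf2 than a gene without any variation would be.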

How the data were processed

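Per the labels' protocols, RNA of grafted corneas was read as paired ends on an Illumina NovaSeq. The authors deposited raw counts per gene symbol and FPKM of 17771 genes, and the FPKM in their single-library files equalled the FPKM table (6 of 6). The build mRatBN7.2, R 3.2.0 and DESeq2 come from the submitters' processing notes, which give them no role. Aligner, counter, annotation and strand setting: not given in the sources used here. The header of the counts runs a pair of library names together, and it was split between them before columns were matched to libraries by name.

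Counts were filtered with filterByExpr, scaled with TMM and tested with edgeR 4.0.16 (quasi-likelihood, resveratrol against control, no covariate, Benjamini-Hochberg over 14213 genes, threshold 0.05) in R 4.3.3. Genes left out held 0.0237% of counts. Standard errors are those of limma 3.58.1 (log2 CPM, prior count 2); DESeq2 1.42.0 was an alternative. The code was tested on simulated data. With 3 against 3 libraries an exact permutation test cannot go below 0.1 and was not used.

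The members and gene lists were chosen with earlier results of these data known. The ratios to Ptprc and Foxp3, the ranks of variation among genes of near mean CPM and the description of promoter windows were added after the values were seen. Named genes were the members, the 2 tested genes of highest mean CPM in each list, a fixed set (Ptprc, Cd3e, Foxp3, Cd68, Itgax, Ncr1, Itga2b, Krt12, Kera, Chd4, Hdac1, Hdac2 and Crbn, with a further gene that is not reported here) and the 5 genes of nearest profile; marker lists are in part given only by counts and sums. Alternatives covered scaling, filter, tool, FPKM with pseudocounts of 1 and 0.1, the ending Sep or Oct, a block for the replicate number, and leaving out each library. Promoter windows are from RefSeq (GRCr8), matched by symbol.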

Additional observations from a re-analysis of the deposited data

How the results depend on the processing

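Of 16 alternatives, the count of genes passing an adjusted p of 0.05 was 0 in 13. DESeq2 called 1007 genes, and over the fits that left out 1 library edgeR called 0 to 21 (21 without control 3, 1 without resveratrol 2). Of the 5 members, 0 passed under any of the 16. Over all settings the log2 fold change ranged from -0.78 to -0.16 for Ikzf1, -0.0061 to 0.12 for Ikzf2 (to 0.107 without a library), 0.028 to 0.64 for Ikzf3, -0.35 to -0.029 for Ikzf4 and 0.068 to 0.25 for Ikzf5. The sign changed once, for Ikzf2 at -0.0061 without control 2. Values on log2(FPKM + 1) are nearer 0 for the scarce members because the pseudocount exceeds their level. Of 304 recomputed list medians, 21 moved by at least their spread between libraries, and 5 of the lists changed sign under some alternative: the NuRD genes (-0.011 without control 2), the lymphocyte targets (0.12 without control 3), natural killer markers (0.40 in the Oct libraries), epithelium (-0.029 without resveratrol 1) and Schwann cells (to -0.10 in the Oct libraries). In the Oct libraries the medians were also -0.43 for macrophages, -0.73 for dendritic cells and -0.36 for vessels, and on log2(FPKM + 1) they were -0.52 for T cells and -0.20 for regulatory T cells. The corneal endothelial median was -0.034 without control 2. No cause was tested. With the replicate number as a replicate block edgeR called 0 genes and Ikzf1 was at -0.51. The labels do not say whether same-numbered libraries belong together, though both libraries numbered 1 end in Sep. Same-numbered libraries had correlations of deviations of -0.023 to -0.004, and no library correlated best with its own number. With 3 libraries per group these values cannot settle a pairing, and none is concluded. The order of levels on a coding length was not run, as protein sequences were not used here. Counting error limits Ikzf4 and Ikzf3 most, at 55 to 196 counts per library.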
